A study of Mus musculus with 16 samples.

Results

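Mitochondrial ribosomal protein genes were followed through the bulk RNA-seq libraries of mouse dorsal root ganglia (DRGs), the clusters of sensory neuron cell bodies beside the spinal cord. The set was all protein-coding genes whose symbol is Mrpl or Mrps and a number, and it held 78 genes of the 52636 in the count tables. The study asked how the DRG transcriptome responded to spared nerve injury (SNI) and to desipramine (DMI), a tricyclic antidepressant that mainly blocks noradrenaline reuptake. All animals were male C57Bl6/J mice of 3 to 4 months, and each library came from the L3-6 DRGs of 1 mouse. In the SNI groups the common peroneal and sural nerves were ligated and cut and the tibial nerve was left, whereas the sham groups had surgery without nerve damage. Starting 4 weeks after surgery by the series design (the methods of the study give months in place of weeks), mice were injected intraperitoneally 2 times a day for 3 weeks with saline or with DMI at 15 mg/kg. Crossing surgery with injection gave 4 groups of 4 mice, named SNI-DMI and SNI-Saline for the injured mice and Sham-DMI and Sham-Saline for the others. L3-6 DRGs hold injured neurons, uninjured neurons, glia and immune cells, and in such bulk samples fewer cells of a type and less RNA per cell cannot be told apart.

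Mitochondria carry their own ribosome, the mitoribosome, which translates the few messenger RNAs encoded by mitochondrial DNA into core subunits of the respiratory chain and ATP synthase. All of its proteins are encoded in the nucleus, made in the cytosol and imported, while its ribosomal RNAs come from mitochondrial DNA. The large subunit (proteins named with L) holds the peptidyl transferase centre and the exit tunnel, and the small subunit (named with S) binds the messenger and holds the decoding centre. Some of the proteins have counterparts in bacterial ribosomes and others are found in mitochondria alone. The 78 genes comprised 51 of the large subunit, 30 with a bacterial homologue and 21 specific to mitochondria, and 26 of the small subunit, 16 with a bacterial homologue and 10 specific to mitochondria. Mrps18a and Mrps30 were counted in the large subunit, where their proteins sit despite the symbols. The remaining gene, Mrps36, fits the symbol rule, but its protein is a subunit of the alpha-ketoglutarate dehydrogenase complex. The genes lay on 17 chromosomes, with 11 of them on chromosome 11.

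Reads counted on genes ranged from 41194238 to 73920332 per library. The labels name spinal cord as the tissue and dorsal root ganglia as the cell type, and the markers went with the latter: 10 sensory neuron markers summed to between 9110 and 11590.2 CPM (counts scaled to a common library size) in every library, against 24.5 to 57.5 CPM for 6 markers of spinal cord glia, of which Olig2 was at 0 in at least 1 library of each DMI group. Injured neuron markers separated the surgeries, at 43.2 to 89.5 CPM over the sham libraries and 164 to 296 CPM over the SNI libraries. The library numbers in the sample titles ran in blocks by group (17 to 20 Sham-DMI, 21 to 24 SNI-DMI, 33 to 36 SNI-Saline, 37 to 40 Sham-Saline). The labels do not say what these numbers record, and anything that went with them cannot be told apart from the group.

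Among the features that the genes shared outside their products were their promoters. Promoter sequences (250 bases before to 50 after the start, RefSeq, GRCm38.p6) were matched for 69 of the 78 genes and for 16522 protein-coding genes in all, and were searched on both strands for motifs of factors known to regulate nuclear genes of mitochondria. CCGGAAG, a core bound by ETS factors such as GABPA, occurred in 26 of the 69 (37.7%) and in 13.4% of all promoters. GCATGCGC, the core of the site of nuclear respiratory factor 1 (NRF1), occurred in 8 of 69 (11.6%, against 4.11%). AAGATGGC, a core bound by YY1, occurred in 12 of 69 (17.4%, against 3.64%). The ETS and YY1 letters can overlap in AAG, and the NRF1 core can overlap its own reverse complement. By contrast TATAAA was found in 7.25% against 14.3% of all promoters, CCAAT in 39.1% against 42.1%, and CACGTG in 7.25% against 9.18%. CAAGGTCA, the site of ERR alpha, occurred in 2.90% against 1.47%. These are letter matches and were not tested as binding sites.

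Every promoter printed below holds a match, whereas those of Mrpl2, Mrpl44 and Mrpl55, genes also called in a comparison below, hold none of the ETS, NRF1 and YY1 letters. The promoters below are those of 3 genes called in SNI-Saline versus Sham-Saline (Mrpl52, Mrpl22, Mrps16), of Mrps18a, which holds an ETS and a YY1 match, and of Mrpl32, which holds 4 NRF1 matches, a pair of them overlapping, and a YY1 match. They lie at chr14:54426659-54426958 (plus strand), chr11:58171414-58171713 (plus), chr14:20393441-20393740 (minus, the downstream of its pair of starts), chr17:46110754-46111053 (plus) and chr13:14612988-14613287 (minus), in GRCm38.p6 and written 5′ to 3′ on the gene's strand. Capitals mark the matches to the ETS, NRF1 and YY1 letters above, in either orientation.
Mrpl52: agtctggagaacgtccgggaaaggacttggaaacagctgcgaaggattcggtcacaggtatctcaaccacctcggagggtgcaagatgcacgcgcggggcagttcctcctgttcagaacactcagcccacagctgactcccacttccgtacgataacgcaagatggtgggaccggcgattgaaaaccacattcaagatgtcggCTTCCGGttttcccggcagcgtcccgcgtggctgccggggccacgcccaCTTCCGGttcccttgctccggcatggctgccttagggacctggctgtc
Mrpl22: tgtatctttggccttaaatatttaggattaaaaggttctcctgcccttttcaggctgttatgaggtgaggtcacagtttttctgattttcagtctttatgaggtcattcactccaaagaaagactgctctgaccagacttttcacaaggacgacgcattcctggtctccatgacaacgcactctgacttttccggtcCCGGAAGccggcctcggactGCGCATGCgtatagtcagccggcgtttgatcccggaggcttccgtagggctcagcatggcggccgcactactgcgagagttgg
Mrps16: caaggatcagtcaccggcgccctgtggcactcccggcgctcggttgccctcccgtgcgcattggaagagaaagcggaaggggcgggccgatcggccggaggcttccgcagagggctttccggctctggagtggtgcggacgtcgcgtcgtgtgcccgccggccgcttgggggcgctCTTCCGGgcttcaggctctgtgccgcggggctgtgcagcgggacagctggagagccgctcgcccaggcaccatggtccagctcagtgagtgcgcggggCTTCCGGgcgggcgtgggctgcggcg
Mrps18a: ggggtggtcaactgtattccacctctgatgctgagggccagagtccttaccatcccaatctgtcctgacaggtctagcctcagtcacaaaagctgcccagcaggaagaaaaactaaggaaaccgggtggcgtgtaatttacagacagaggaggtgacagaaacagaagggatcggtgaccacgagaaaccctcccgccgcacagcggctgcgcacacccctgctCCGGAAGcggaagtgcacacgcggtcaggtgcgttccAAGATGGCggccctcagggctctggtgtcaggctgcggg
Mrpl32: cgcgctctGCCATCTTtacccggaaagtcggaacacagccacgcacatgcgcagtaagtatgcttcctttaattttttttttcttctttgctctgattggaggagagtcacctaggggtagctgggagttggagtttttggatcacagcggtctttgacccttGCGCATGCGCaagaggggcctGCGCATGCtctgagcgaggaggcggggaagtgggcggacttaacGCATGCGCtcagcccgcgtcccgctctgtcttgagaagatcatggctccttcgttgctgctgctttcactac

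A second shared feature was a head-to-head neighbour. Of the 76 genes tested, 18 (23.7%) had another protein-coding gene starting within 1000 bases on the opposite strand and pointing away, against 8.82% of the 15718 protein-coding genes tested. Mrps12 shared such a region with Sars2, the mitochondrial seryl-tRNA synthetase, with starts 172 bases apart, and Mrpl32 with the proteasome gene Psma2, with starts 75 bases apart. Exons of 33 of the 78 genes overlapped exons of another gene, 28 on the opposite strand and 8 on the same strand. The library kit marks strand, but whether the counting used it is not given in the sources used here, so values of these genes are uncertain: of the genes printed below, this holds for Mrpl13 (with Mtbp), Mrpl44 (Wdfy1), Mrpl47 (Actl6a and Ndufb5), Mrps6 (Slc5a3, same strand), and Mrpl3, Mrpl10, Mrpl12, Mrpl58, Mrps18b, Mrps18c and Mrps30 (each with a noncoding or predicted gene).

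The genes were expressed at similar, moderate levels. The median of the 76 genes that passed the filter on low counts was 14.2 CPM per kilobase of merged exons, against 4.797 for all protein-coding genes tested, and 66 of the 76 lay within 3-fold of that median. Levels of single ribosomal protein genes are compared with each other on this per-length scale. The highest were Mrpl41 (68.4 ± 9.16 CPM per kilobase, SD over 16 libraries), Mrpl54 (51.0 ± 6.55), Mrps21 (47.8 ± 5.97), Mrps12 (44.9 ± 6.39) and Mrpl28 (41.4 ± 5.57), of which neighbours from Mrpl54 to Mrpl28 lay within 1 SD of each other. Mrpl41 and Mrpl54 are specific to the mitochondrial large subunit, and Mrps12 is the homologue of the bacterial protein at the decoding centre. The lowest gene tested was Mrps35 of the small subunit, at 2.40 ± 0.252 CPM per kilobase, 28.5 times below Mrpl41. With the longest transcript in place of merged exons, 4 of the 5 highest stayed among the 5 highest.

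**Figure D1:**
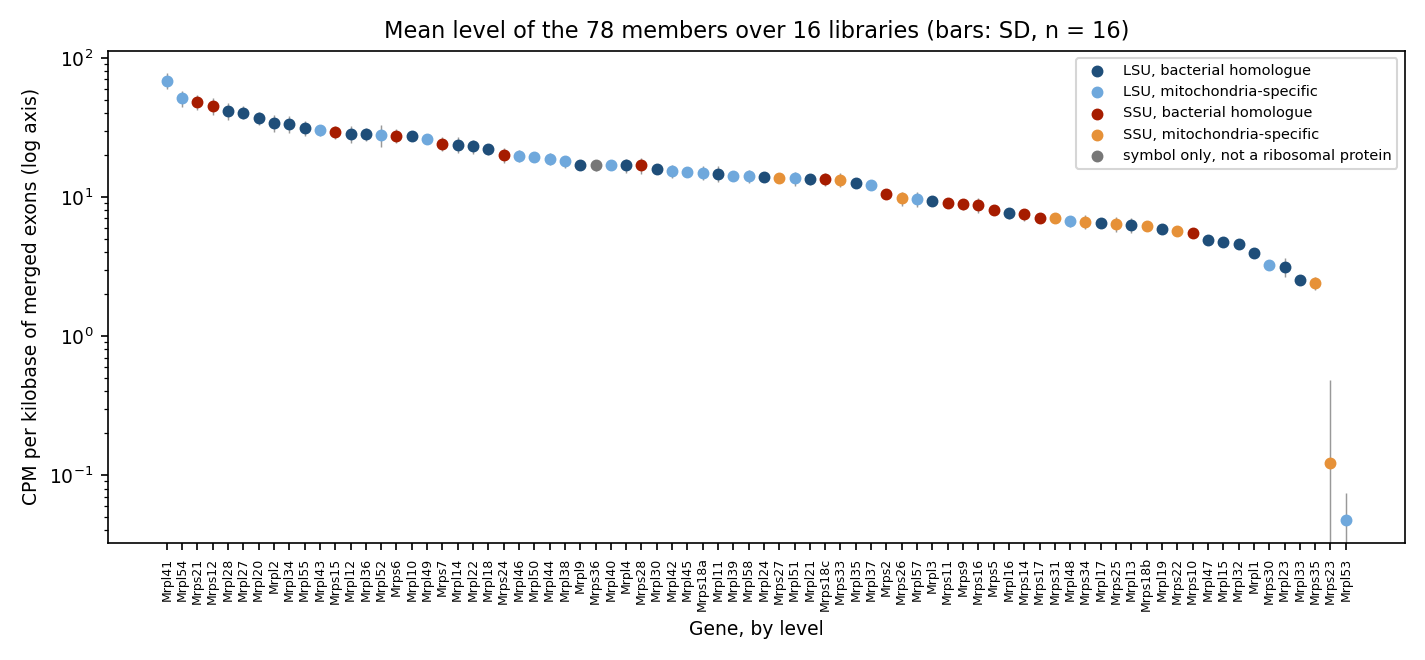
Mean level of each of the 78 genes over the 16 libraries in CPM per kilobase of merged exons (log axis), coloured by subunit class, with bars for the SD (lower ends of the bars of the lowest pair run off the axis). The tested genes run from 68.4 (Mrpl41) down to 2.40 (Mrps35), with all classes interleaved, and Mrps23 and Mrpl53 sit far below.

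Mrps23 and Mrpl53 did not pass the filter and were not tested. Mrpl53 had 37 counts over all 16 libraries, and its highest library was at 0.0766 CPM. Mrps23 had 188 counts, and a single library, SNI-Saline 2, held 2.30 CPM while the other 15 lay between 0 and 0.102 CPM. The other 76 genes each had at least 12664 counts in total. Their spread between mice of a group had a median SD of 0.094 on the log2 CPM scale. For all genes tested it was 0.163, but those genes were not matched for level, and low counts alone widen the spread. Within the set the spread was smallest for Mrpl10, Mrpl3 and Mrpl19 (0.043, 0.054 and 0.057) and largest for Mrpl23, Mrpl54 and Mrps18c (0.160, 0.155 and 0.147).

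Summed over the 78 genes, the level was lowest in Sham-Saline, at 2509, 2550, 2323 and 2506 CPM in mice 1 to 4. It was 2861, 2770, 2616 and 2752 CPM in SNI-Saline. It was 3160, 2680, 2821 and 3037 CPM in Sham-DMI. The libraries of the other 3 groups thus lay above every Sham-Saline library, and SNI-DMI was the tightest group, at 2905, 2979, 3027 and 2974 CPM. The mean ± SD (n = 4) was 2971 ± 50.1 CPM in SNI-DMI against 2750 ± 101 in SNI-Saline, and 2924.5 ± 215 CPM in Sham-DMI against 2472 ± 101 in Sham-Saline. The drug groups were thus 8.06% (injured) and 18.3% (sham) above their saline groups. Injured mice stood 11.2% above sham mice under saline and 1.603% above them under DMI. The summed level has no test, since it is a score over chosen genes. The ratio of the large to the small subunit sum, per kilobase, stayed between 2.58 and 2.74 in the 16 libraries.

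The share of read pairs that fell outside annotated genes also differed between the groups. It was highest in Sham-Saline, at 8.67 to 9.44%, against 7.10 to 8.79% in Sham-DMI, with overlap between the ranges. In injured mice 1 to 4 it was 7.73, 7.78, 9.14 and 7.76% in SNI-Saline and 7.79, 7.57, 8.38 and 7.42% in SNI-DMI. A lower share under DMI in injured mice thus rested mainly on SNI-Saline 3. Within SNI-Saline and Sham-DMI, the library with the lowest sum (SNI-Saline 3, Sham-DMI 2) was also the one with the largest share outside genes, 9.14% and 8.79%. The other groups did not follow this order: SNI-DMI 3 had the largest share of its group (8.38%) and the highest sum, and in Sham-Saline the largest share was in mouse 1 (9.44%) and the lowest sum in mouse 3 (8.99%). In SNI-Saline 3 and Sham-DMI 2, 12 and 16 of the 76 tested genes lay above their own 16-library median, against 28 to 59 in the other SNI-Saline libraries and 48 to 72 in the other Sham-DMI libraries. In Sham-Saline 0 to 8 of the 76 did so, and in SNI-DMI 52 to 70. The effect of this share on each comparison is given with it, from a fit that was added after the values were seen.

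**Figure D2:**
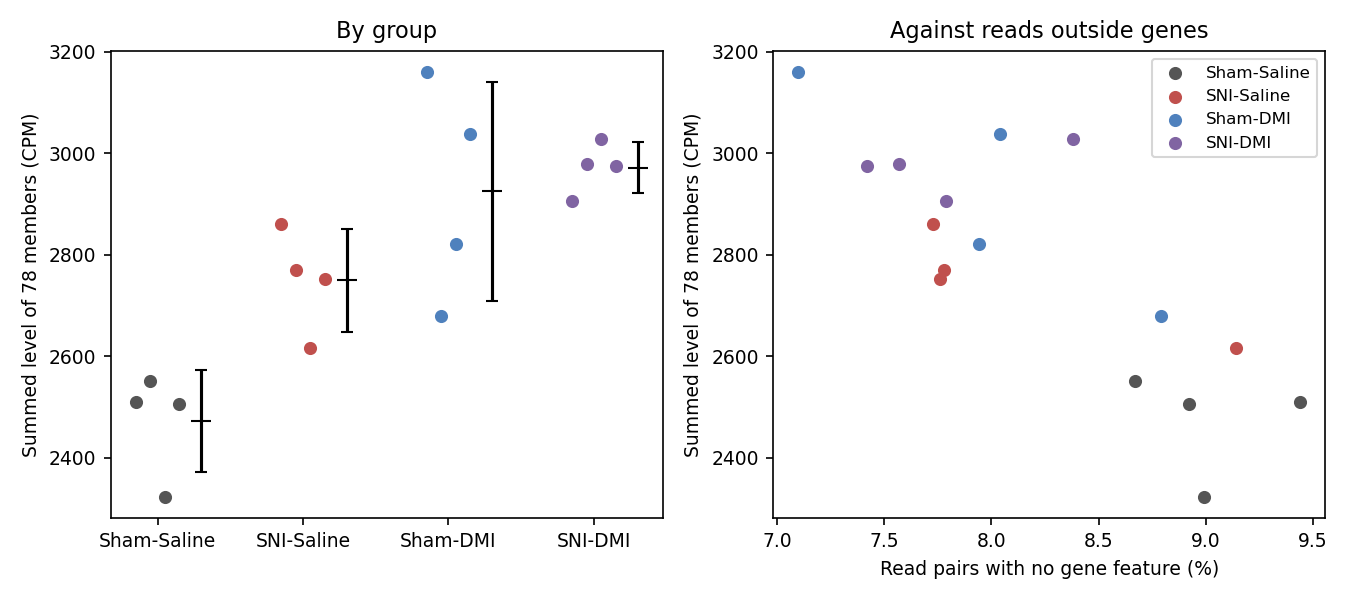
Summed CPM of the 78 genes in each library, by group at left (points are mice, bars the mean and SD, n = 4) and against the percentage of read pairs outside annotated genes at right; the vertical axes do not start at 0. Sham-Saline holds the 4 lowest sums (2323 to 2550 CPM) with 8.67 to 9.44% of pairs outside genes, and Sham-DMI 1 the highest sum (3160 CPM) with the lowest share, 7.10%.

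**Figure D3:**
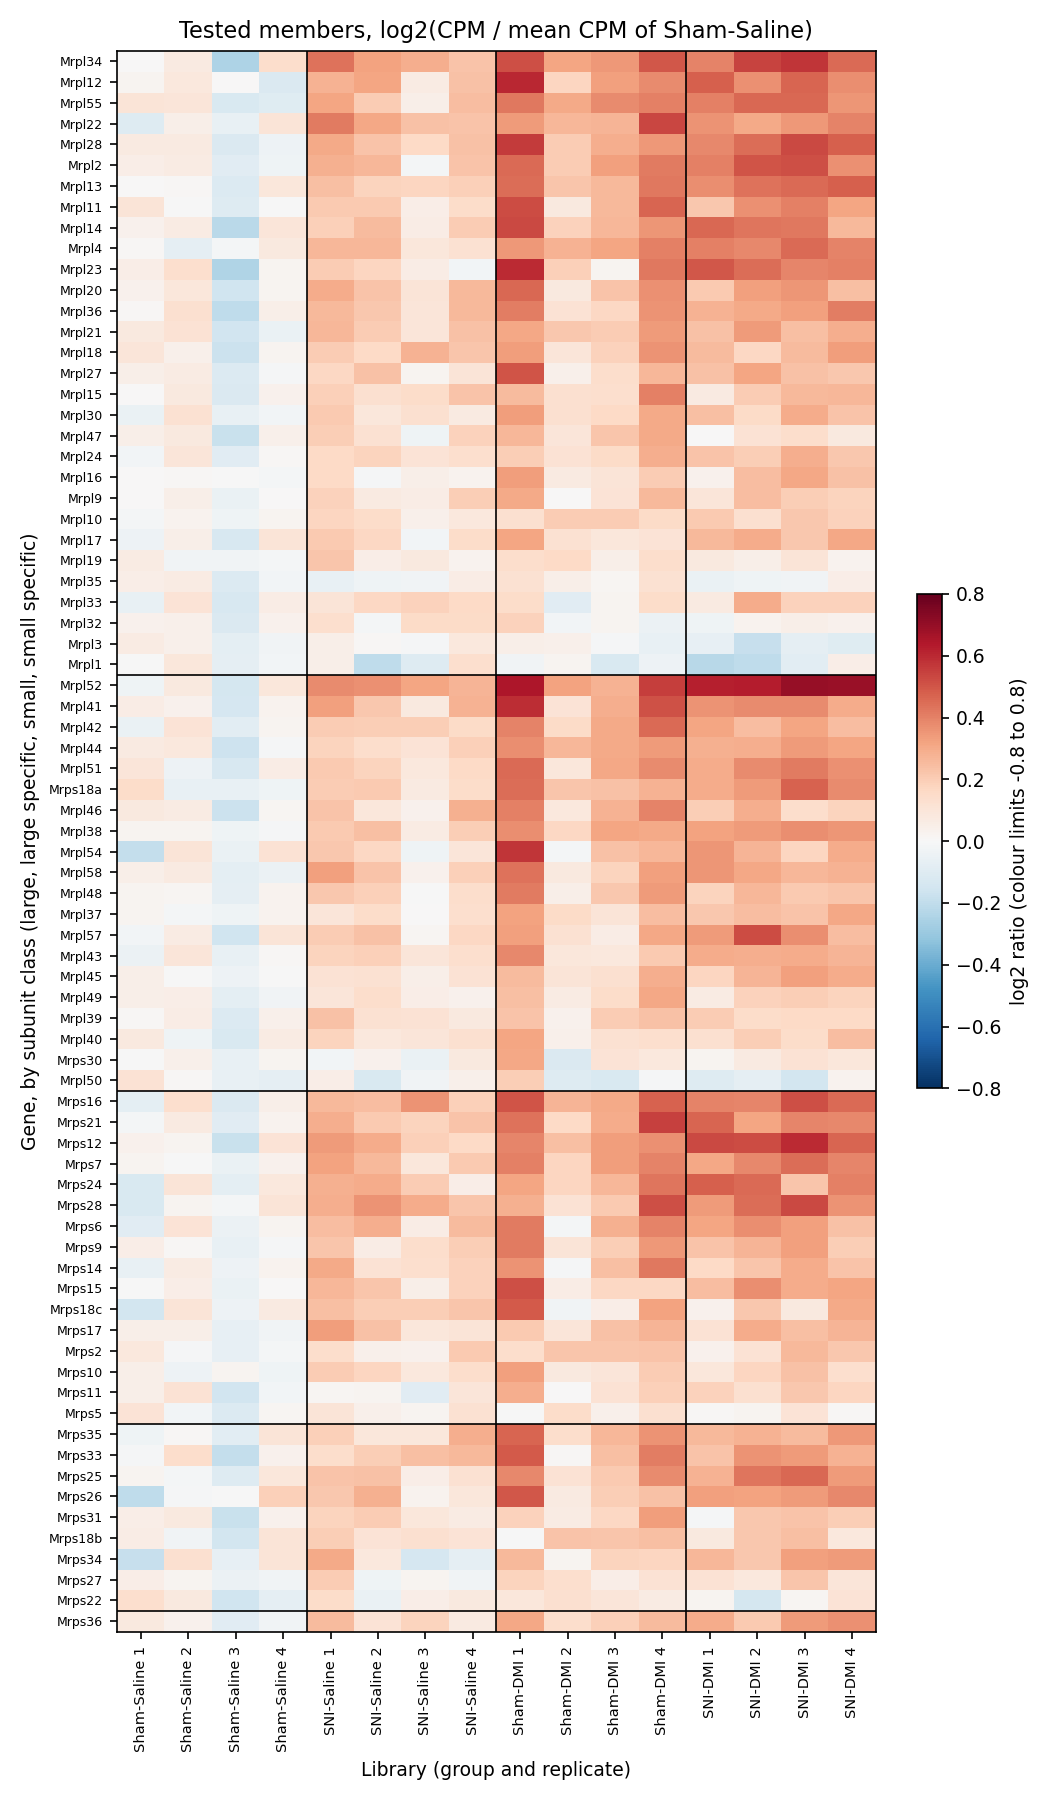
log2 ratio of the CPM of each of the 76 tested genes in each of the 16 libraries to its Sham-Saline mean, with genes grouped by subunit class and ordered within a class by the Sham-DMI versus Sham-Saline fold change. Red (higher) covers most genes in the SNI-Saline, Sham-DMI and SNI-DMI columns, more faintly in SNI-Saline 3 and Sham-DMI 2, and the rows of Mrpl3, Mrpl1, Mrpl35 and Mrpl50 stay pale or blue.

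The comparison of SNI-Saline with Sham-Saline asked how injury changed the genes without drug. The changes were small and nearly all upward: 23 of 76 genes rose and 0 fell at an adjusted p under 0.1 (edgeR quasi-likelihood test, Benjamini-Hochberg over 21371 genes), with log2 fold changes (log2FC) of 0.15 to 0.33. Of all genes tested, 5.85% rose and 6.18% fell. The median log2FC over the 76 genes was 0.16, against -0.0006 over all genes, and 73 of 76 lay above 0, against 49.9% of all genes. In 31 of the 76 the 4 SNI-Saline mice lay above the 4 Sham-Saline mice without overlap, against 7.67% of all genes. By the cut-offs of the study (nominal p under 0.05 and a log2FC of at least 0.32), a single gene, Mrpl52, passed upward, against 3.64% of all genes.

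Mrpl52, specific to the mitochondrial large subunit, was at 23.1, 24.95, 21.5 and 25.2 CPM in Sham-Saline and at 30.8, 30.5, 29.4 and 28.6 CPM in SNI-Saline. The groups did not overlap, and the log2FC was 0.33 ± 0.07 (SE; adjusted p = 0.0211). Mrpl22, a protein that lines the exit tunnel, was at 17.7, 19.6, 18.2 and 20.4 CPM in Sham-Saline and at 25.4, 23.5, 22.3 and 22.2 CPM in SNI-Saline. Again every injured mouse was above every sham mouse, with a log2FC of 0.30 ± 0.07 (adjusted p = 0.0224). Mrps12 of the decoding centre was at 39.1, 38.8, 33.8 and 41.2 CPM in Sham-Saline and at 48.4, 47.0, 43.7 and 42.7 CPM in SNI-Saline (log2FC 0.25 ± 0.06, adjusted p = 0.0282). Mrpl34 rose from 16.3 ± 1.84 to 20.3 ± 1.25 CPM (mean ± SD, n = 4; log2FC 0.32 ± 0.08, adjusted p = 0.0311 by edgeR) and Mrps16 from 20.7 ± 1.68 to 24.9 ± 1.23 CPM (0.27 ± 0.07, adjusted p = 0.0338), also without overlap. Both have bacterial homologues, Mrpl34 in the large and Mrps16 in the small subunit.

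The count depended on single libraries. It was 4 without Sham-Saline 3 (3.15% of all genes called, against 12% with all libraries), 5 without SNI-Saline 1 (3.45%) and 8 without SNI-Saline 2 (3.55%). It was 10 without Sham-Saline 4 (5.62%), 14 without SNI-Saline 4 (7.46%) and 42 without Sham-DMI 2 (14.2%), a library outside the contrast but within the fit. Mrps16 missed the threshold without Sham-Saline 3 (adjusted p = 0.101 by edgeR). Mrps12 and Mrpl34 missed it once trends with GC content and gene length were removed. With the share of reads outside genes as a covariate, 0 of the 76 were called (14 at a nominal p under 0.05) and the median log2FC was 0.09. Of all genes, 1.02% were called in that fit.

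The comparison of SNI-DMI with SNI-Saline asked what the drug changed in injured mice. Here 7 of 76 genes rose and 0 fell, against 1.32% and 1.61% of all genes, and the 7 were Mrps12, Mrpl52, Mrpl4, Mrpl13, Mrpl2, Mrpl28 and Mrps18a, with log2FC of 0.21 to 0.33. The median over the 76 genes was 0.11 (all genes -0.0047), and 67 lay above 0, against 49.0% of all genes. By the cut-offs of the study 2 (Mrpl52 and Mrpl23) passed upward, against 1.93% of all genes. In 28 genes the SNI-DMI mice lay above the SNI-Saline mice without overlap and in 1, Mrpl3, below, against 7.33% and 5.97% of all genes.

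Mrpl52, at 28.6 to 30.8 CPM in SNI-Saline as given above, reached 36.4, 36.6, 38.4 and 38.3 CPM in SNI-DMI (log2FC 0.33 ± 0.07, adjusted p = 0.0630 by edgeR). Mrps12, at 42.7 to 48.4 CPM in SNI-Saline, reached 55.1, 54.9, 57.7 and 52.8 CPM (0.28 ± 0.06, adjusted p = 0.0630). The 4 SNI-DMI libraries lay above every library of the other 3 groups for Mrps12, and above every saline library for Mrpl52. Mrpl4, a protein that reaches into the exit tunnel, was at 44.8, 44.9, 39.8 and 40.7 CPM in SNI-Saline and at 49.2, 48.7, 51.0 and 49.2 CPM in SNI-DMI (0.22 ± 0.05, adjusted p = 0.0676). Mrpl13 went from 47.8 ± 1.10 to 56.4 ± 1.81 CPM (0.24 ± 0.06, adjusted p = 0.0676 by edgeR) and Mrpl2, near the peptidyl transferase centre, from 37.9 ± 3.52 to 45.2 ± 2.38 CPM (0.25 ± 0.07, adjusted p = 0.0930), each without overlap of the groups. Mrpl3, which also lies near that centre, was at 65.1, 63.3, 62.6 and 66.8 CPM in SNI-Saline and 60.2, 55.4, 59.8 and 58.8 CPM in SNI-DMI. The groups did not overlap, but its log2FC of -0.14 ± 0.05 missed the threshold (adjusted p = 0.133 by edgeR).

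This count was the least stable. The calls over all genes, 2.93% with all libraries, moved with it. No gene of the set was called without any 1 of SNI-DMI 1, SNI-DMI 2, SNI-DMI 3, SNI-Saline 1, SNI-Saline 3 or SNI-Saline 4. In these fits 0 to 0.175% of all genes were called. The count was 11 without SNI-Saline 2 (4.53% of all genes), 18 (17 higher, and Mrpl3 lower) without Sham-DMI 1 (8.48%) and 15 without Sham-DMI 2 (5.59%). It was 4 without each of Sham-DMI 3, Sham-Saline 2 and Sham-Saline 4 (1.43%, 1.11% and 1.04%). At a nominal p under 0.05, 31 genes were higher and 1 lower, against 8.89% and 9.64% of all genes. With the share of reads outside genes as a covariate 5 were called, against 2.9% of all genes, and the median was 0.08.

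The comparison of Sham-DMI with Sham-Saline asked what the drug changed without nerve injury, and most of the genes were higher here. Of the 76 tested, 61 rose and 0 fell, against 11.6% and 11.9% of all genes, with log2FC of 0.16 to 0.46 among those that rose. The median was 0.25 (all genes -0.0210), 74 lay above 0 (against 46.7% of all genes), and 44 had the 4 Sham-DMI mice above the 4 Sham-Saline mice without overlap, against 8.62% of all genes. By the cut-offs of the study 19 passed upward, against 3.93% of all genes. The same Sham-Saline libraries are the baseline of the injury comparison above, so those results are not independent of each other.

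Mrpl4 was at 37.6, 35.4, 36.8 and 39.3 CPM in Sham-Saline and at 47.3, 45.2, 46.5 and 49.4 CPM in Sham-DMI. This was the smallest p among the 76, with a log2FC of 0.34 ± 0.05 (adjusted p = 0.00176 by edgeR). Mrpl52 had the largest fold change, from 21.5 to 25.2 CPM in Sham-Saline to 37.1, 29.6, 28.7 and 34.8 CPM in Sham-DMI (0.46 ± 0.07, adjusted p = 0.00194). Mrpl13 was at 41.8, 42.0, 38.7 and 44.5 CPM in Sham-Saline and at 57.0, 48.7, 49.9 and 55.9 CPM in Sham-DMI (0.34 ± 0.06, adjusted p = 0.00201). Mrpl44, a large subunit protein with an RNase III-like fold, rose from 26.8 ± 2.11 to 33.5 ± 1.09 CPM (0.32 ± 0.05, adjusted p = 0.00212 by edgeR). Mrpl55 rose from 26.8 ± 2.23 to 34.8 ± 1.21 CPM (0.38 ± 0.06, adjusted p = 0.00216 by edgeR). In each of these 5 genes the groups did not overlap, and Sham-DMI 1 or Sham-DMI 4 was the highest of the Sham-DMI libraries.

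The 15 tested genes that missed the threshold were Mrpl1, Mrpl3, Mrpl19, Mrpl32, Mrpl33, Mrpl35, Mrpl50, Mrps5, Mrps11, Mrps18b, Mrps18c, Mrps22, Mrps27, Mrps30 and Mrps34, named here after their values were seen. Mrpl3 overlapped between the groups, at 65.7, 64.7, 59.7 and 61.6 CPM in Sham-Saline and at 65.1, 64.7, 62.5 and 60.3 CPM in Sham-DMI (log2FC 0.005 ± 0.05, adjusted p = 0.957 by edgeR). Mrpl1 (-0.04) and Mrpl50 (-0.004) were the pair with a log2FC below 0. Leaving out any 1 library gave 51 to 65 genes called, and 15.2 to 28.1% of all genes, against 23.4% with all libraries. With the share of reads outside genes as a covariate the count was 15, all higher, against 4.96% of all genes, and the median log2FC was 0.16.

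Between the drug-treated groups, SNI-DMI and Sham-DMI, 0 of 76 genes were called, against 0.402% of all genes (DESeq2 also called 0). At a nominal p under 0.05, 3 were higher and 1 lower by edgeR, against 6.67% and 5.43% of all genes. The median log2FC was 0.02 (all genes 0.0007), with 45 genes above 0, against 50.2% of all genes, and 31 below. The smallest p belonged to Mrps12, at 50.1, 45.2, 48.2 and 49.2 CPM in Sham-DMI and 52.8 to 57.7 CPM in SNI-DMI. Its groups did not overlap, but the log2FC of 0.19 ± 0.06 missed the threshold (adjusted p = 0.217 by edgeR). Mrpl52 differed by 0.20 ± 0.07 (adjusted p = 0.299, and 0.0820 without Sham-DMI 1, the one setting in which a gene of the set was called) and Mrpl3 by -0.11 ± 0.05 (adjusted p = 0.360). Without Sham-DMI 2 the median turned to -0.01.

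The test of whether the DMI effect differed between SNI and sham mice called 0 of 76 genes and 0.00% of all genes. At a nominal p under 0.05, 15 genes had a smaller DMI effect in SNI mice and 0 a larger one, against 3.98% and 3.94% of all genes. The difference (SNI minus sham) lay below 0 in 73 of the 76 genes, against 48.7% of all genes, with a median of -0.13. It was -0.31 ± 0.10 for Mrpl22 (SE, adjusted p = 0.619 by edgeR), -0.24 ± 0.08 for Mrpl42 and -0.25 ± 0.10 for Mrpl47, both with the same adjusted p. Mrpl22 had the most negative difference of the 76 genes and does not stand for the set. Its mean was 18.97 ± 1.24 CPM in Sham-Saline, below 24.2 ± 0.653 in SNI-DMI, 24.3 ± 2.19 in Sham-DMI and 23.4 ± 1.45 in SNI-Saline. In the summed level SNI-Saline (mean 2750 CPM) lay between Sham-Saline (2472 CPM) and the drug groups (2924.5 CPM in Sham-DMI, 2971 CPM in SNI-DMI). Mrpl42, of the large subunit, went from 47.1, 52.7, 46.0 and 49.4 CPM under saline to 64.4, 54.2, 60.2 and 66.8 CPM under DMI in sham mice. In injured mice it went from 56.2, 56.0, 55.9 and 54.4 CPM to 60.6, 57.8, 60.6 and 57.9 CPM. Mrps12 and Mrpl52 had their highest mean in SNI-DMI, as the summed level did. Their differences between DMI effects were -0.06 ± 0.09 and -0.13 ± 0.10, the latter at the median of the set.

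**Figure D4:**
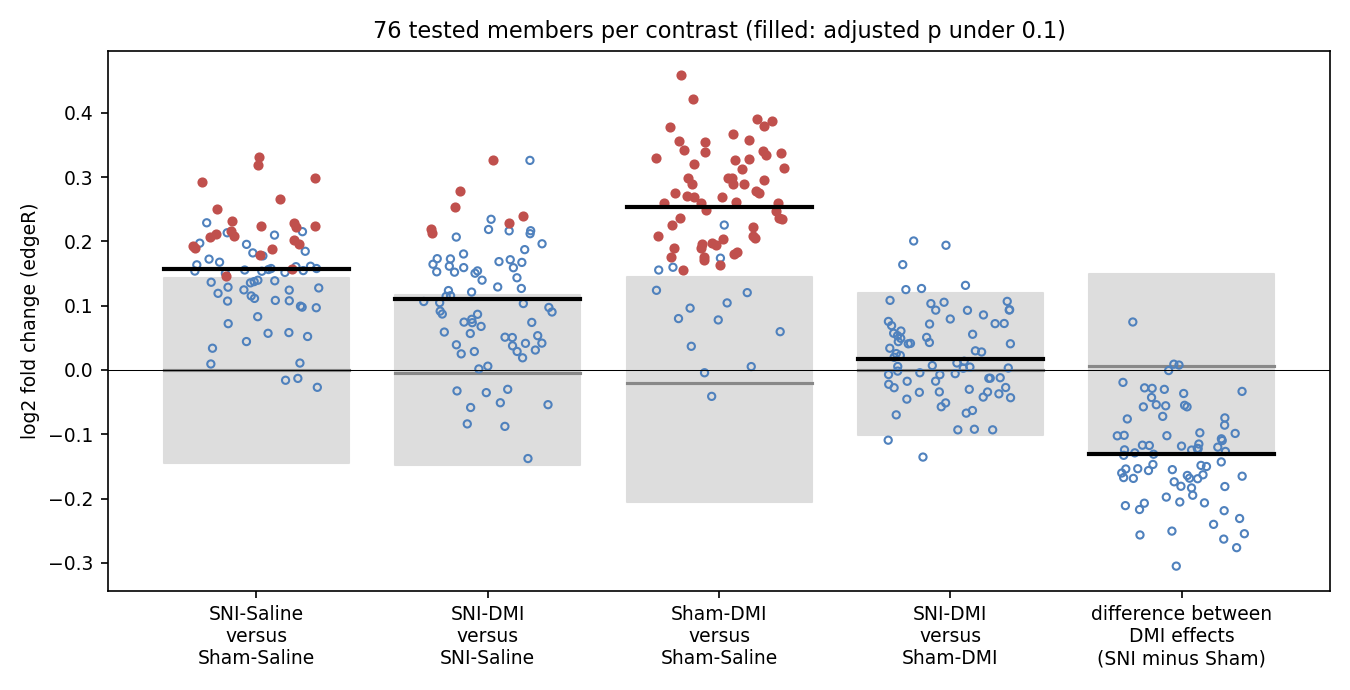
log2FC of the 76 tested genes (points, filled where the adjusted p was under 0.1) in each of the 5 comparisons, with their median as a black line and the quartiles and median of all 21371 genes as a grey band and line. The medians are 0.16, 0.11, 0.25, 0.02 and -0.13 from left to right, with 23, 7, 61, 0 and 0 genes filled.

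Both subunits held genes that rose. In Sham-DMI versus Sham-Saline 42 of 50 large subunit genes rose with a median of 0.25, and 18 of 25 small subunit genes with a median of 0.26. In SNI-Saline versus Sham-Saline the counts were 16 of 50 (0.15) and 7 of 25 (0.17), and in SNI-DMI versus SNI-Saline 6 of 50 (0.11) and 1 of 25 (0.10). Of all genes, 11.6%, 5.85% and 1.32% rose in these comparisons, in the order given. Among small subunit genes, 13 of the 16 with bacterial homologues and 5 of the 9 tested that are specific to mitochondria rose in Sham-DMI, with medians of 0.27 and 0.19. Among large subunit genes, 24 of 30 with homologues and 18 of 20 specific ones did, with medians of 0.25 and 0.26. Differences between these classes were not tested.

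Several proteins have roles beyond the body of the ribosome or a structure of their own, and their genes are given whatever their values. The stalk, where translation factors dock, is built from Mrpl12 on a base of Mrpl10. Mrpl12 went from 36.1 ± 2.04 CPM under saline to 47.0 ± 5.89 under DMI in sham mice and from 42.2 ± 3.13 to 48.3 ± 1.98 CPM in injured mice, with a log2FC of 0.38 ± 0.08 in Sham-DMI versus Sham-Saline (adjusted p = 0.00436 by edgeR). Mrpl10 went from 42.9 ± 0.870 to 48.3 ± 1.25 CPM in sham and from 46.3 ± 1.94 to 48.7 ± 1.29 CPM in injured mice, and its smaller log2FC of 0.17 ± 0.04 also passed (adjusted p = 0.0136). That call was lost once trends with GC content and gene length were removed, and with the share of reads outside genes as a covariate (adjusted p up to 0.383 by edgeR). Mrpl58, a peptidyl-tRNA hydrolase that rescues stalled ribosomes, was higher in Sham-DMI by 0.26 ± 0.07 (adjusted p = 0.0200 by edgeR). With that covariate neither Mrpl58 nor Mrpl12 was called.

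The 3 paralogues of bacterial S18 differed in their calls in Sham-DMI versus Sham-Saline. In the class counts above, Mrps18b was placed among the small subunit genes specific to mitochondria despite this relation. Mrps18a, whose product sits in the large subunit, rose by 0.30 ± 0.06 (adjusted p = 0.00493 by edgeR). Mrps18b was at 12.3, 11.6, 10.7 and 12.7 CPM in Sham-Saline and at 11.8, 13.8, 13.8 and 13.95 CPM in Sham-DMI, where mouse 1 stood apart below the others (0.17 ± 0.08, adjusted p = 0.131). Mrps18c was at 11.7, 13.9, 12.6 and 13.7 CPM in Sham-Saline and at 18.3, 12.7, 13.5 and 16.2 CPM in Sham-DMI, with overlap of the groups (0.23 ± 0.10, adjusted p = 0.135). The differences between the paralogues were not tested. Mrps30, the other large subunit protein with an S symbol, was at 20.7 ± 0.646 CPM in Sham-Saline and 22.3 ± 2.68 in Sham-DMI (0.10 ± 0.07, adjusted p = 0.343).

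Mrps36, which is no ribosomal protein, was higher in Sham-DMI by 0.23 ± 0.06 (adjusted p = 0.0179 by edgeR), a value inside the range of the ribosomal genes. Mrpl23, which lies on chromosome 7 at 142532686 to 142540747 beside an imprinted gene cluster and whose product sits at the exit of the tunnel, was at 13.6, 14.4, 11.1 and 13.3 CPM in Sham-Saline and at 19.7, 14.9, 13.3 and 17.5 CPM in Sham-DMI. The groups overlapped, and its log2FC of 0.33 ± 0.10 (adjusted p = 0.0407 by edgeR) was no longer called without Sham-DMI 1 or without Sham-Saline 3, with adjusted p up to 0.124. Mrps6, which shares exonic sequence with the inositol transporter gene Slc5a3, was higher by 0.28 ± 0.08 with overlapping groups (adjusted p = 0.0244 by edgeR). The call of Mrps6 was lost once trends with GC content and gene length were removed, and with the share of reads outside genes as a covariate (adjusted p up to 0.498 by edgeR). Mrps36 and Mrpl23 were not called with that covariate either.

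The other genes of mitochondrial translation were read from lists of the pathway, against the 11.6% of all genes that rose and the 11.9% that fell in Sham-DMI versus Sham-Saline. The shares that rose and fell were 5.85% and 6.18% in SNI-Saline versus Sham-Saline and 1.32% and 1.61% in SNI-DMI versus SNI-Saline. Of 5 mitoribosomal proteins with other symbols, 2 rose in Sham-DMI versus Sham-Saline, Aurkaip1 (log2FC 0.36 ± 0.07, adjusted p = 0.00400 by edgeR) and Dap3 (0.18 ± 0.05, adjusted p = 0.0240), and Aurkaip1 rose in SNI-Saline too (0.20 ± 0.07, adjusted p = 0.0967). Of 24 assembly factors tested, 9 rose and 0 fell in Sham-DMI (median 0.15), among them Mettl17 (0.34 ± 0.07), the helicase Ddx28 (0.26 ± 0.06) and the pseudouridine synthase Rpusd4 (0.28 ± 0.08). Mettl17 was the 1 assembly factor that rose with injury (0.27 ± 0.07, adjusted p = 0.0335 by edgeR), and none was called in SNI-DMI versus SNI-Saline, where 6 were higher and 1 lower at a nominal p under 0.05.

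Translation factors were mixed. In Sham-DMI, 4 of 12 rose, led by the elongation factor Tufm (0.30 ± 0.05, adjusted p = 0.00235 by edgeR), Mtif3 (0.25 ± 0.08) and Gfm1 (0.12 ± 0.04), and 1 fell, Guf1 (-0.16 ± 0.06). Of 20 genes of mitochondrial tRNA charging, 5 rose, led by Tars2 (0.24 ± 0.05, adjusted p = 0.00492 by edgeR), Qrsl1 (0.18 ± 0.05) and Fars2 (0.24 ± 0.07), and 1 fell, Wars2 (-0.30 ± 0.11). Tars2 also rose in SNI-DMI versus SNI-Saline (0.18 ± 0.05, adjusted p = 0.0903). Of 14 genes of mitochondrial DNA transcription and RNA stability 2 rose in Sham-DMI, Fastk (0.16 ± 0.05) and Twnk (0.25 ± 0.08), and Pnpt1 fell there (-0.14 ± 0.05) and in SNI-DMI versus SNI-Saline (-0.19 ± 0.05). The counts of this last list were near the shares of all genes. The medians of these 3 lists in Sham-DMI were 0.11, 0.07 and 0.06, against 0.25 for the ribosomal protein genes.

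Of 9 regulators of mitochondrial biogenesis, 5 fell and 2 rose in Sham-DMI versus Sham-Saline, with a median of -0.15. The coactivator gene Ppargc1b fell (-0.45 ± 0.13, adjusted p = 0.0252 by edgeR), as did Yy1 (-0.16 ± 0.05, adjusted p = 0.0348), Gabpa, Ppargc1a and Pprc1, while Esrra (0.23 ± 0.06, adjusted p = 0.0195) and Nrf1 (0.16 ± 0.06, adjusted p = 0.0666) rose. Yy1 (-0.20 ± 0.05, adjusted p = 0.0279 by edgeR) and Ppargc1b (-0.39 ± 0.13, adjusted p = 0.0768) also fell in SNI-Saline versus Sham-Saline, and no gene of this list was called in SNI-DMI versus SNI-Saline, where 3 were higher at a nominal p under 0.05. These are levels of messenger RNA, which say nothing of the amount or activity of the factors at the promoters printed above.

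**Figure D5:**
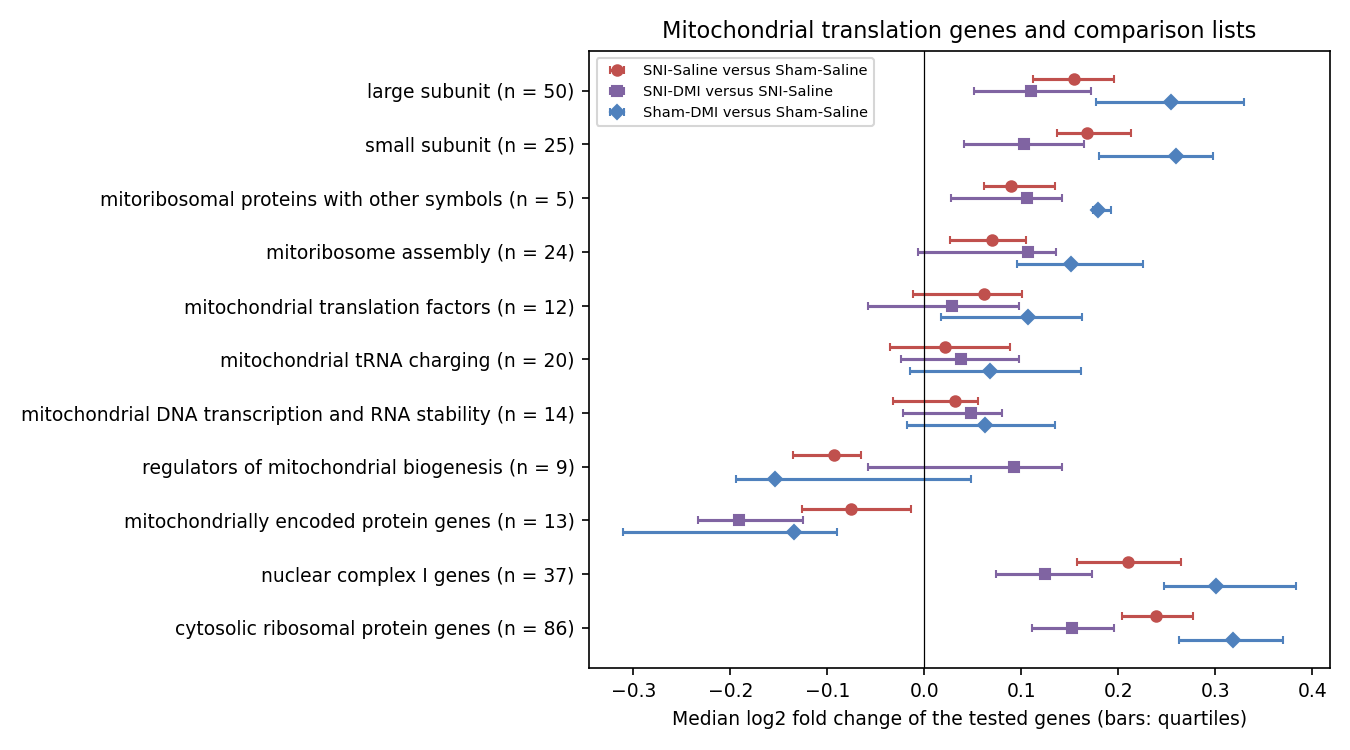
Median log2FC (points) and quartiles (bars) of the tested genes of each list in the 3 comparisons with a saline baseline. Both mitoribosomal subunits, nuclear complex I genes and cytosolic ribosomal protein genes lie to the right in all 3, and the mitochondrially encoded protein genes to the left. The accessory lists lie nearer 0 than both subunits in SNI-Saline and Sham-DMI versus Sham-Saline, whereas in SNI-DMI versus SNI-Saline the assembly factors (median 0.11) lie level with them (0.11 and 0.10).

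The products of the mitoribosome are the 13 proteins of mitochondrial DNA, and their messengers did not rise. In Sham-DMI versus Sham-Saline 0 of 13 rose and 3 fell (mt-Co3, mt-Atp8 and mt-Nd4l), against 11.6% and 11.9% of all genes. The median log2FC was -0.13, and the summed level was 9859 ± 1444 CPM against 10371.5 ± 365. In SNI-DMI versus SNI-Saline 0 rose and 1 fell (mt-Nd4l, -0.52 ± 0.14, adjusted p = 0.0871 by edgeR), against 1.32% and 1.61% of all genes. The median there was -0.19. In SNI-Saline versus Sham-Saline none was called (1 lower at a nominal p under 0.05), with a median of -0.08, whereas 5.85% of all genes rose and 6.18% fell. Those 3 genes had at most 19.4 CPM in any group mean, and reads shared with nuclear copies of mitochondrial DNA make such low counts uncertain.

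The mitoribosomal genes were not alone in their direction. Of 86 cytosolic ribosomal protein genes tested, 64 rose in SNI-Saline versus Sham-Saline, 3 in SNI-DMI versus SNI-Saline and 76 in Sham-DMI versus Sham-Saline, 0 fell in any of them, and the medians were 0.24, 0.15 and 0.32. Of all genes, 5.85%, 1.32% and 11.6% rose in these comparisons, in that order. Of 37 nuclear genes of respiratory complex I, 27, 5 and 35 rose and 0 fell, with medians of 0.21, 0.12 and 0.30. The cytosolic ribosomal genes have many near-identical pseudogenes, which makes their counts uncertain. No difference between these lists and the mitoribosomal genes was tested, and the libraries with the lowest mitoribosomal sum in the SNI-Saline and Sham-DMI groups were also the lowest of their groups for complex I.

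Markers of other cells moved in the same comparisons. Of all genes, 11.6% rose and 11.9% fell in Sham-DMI versus Sham-Saline. These shares were 5.85% and 6.18% in SNI-Saline versus Sham-Saline, and 1.32% and 1.61% in SNI-DMI versus SNI-Saline. A single called marker of a list is too few to set against them. In Sham-DMI versus Sham-Saline, 5 of 7 neutrophil markers fell with a median log2FC of -1.51, from a sum of 10.1 to 38.9 CPM to one of 3.77 to 18.2 CPM, with Elane at or near 0. In that comparison 2 of 7 macrophage markers fell (sums of 57.0 to 66.5 and 45.4 to 58.5 CPM), 4 of 10 sensory neuron markers rose (9110 to 9635 and 9682 to 11590.2 CPM) and 4 of 7 injured neuron markers rose (43.2 to 55.1 and 57.7 to 89.5 CPM). Of 6 satellite glia markers 2 rose and 1 fell there (2379 to 2642 and 2519 to 3139 CPM), and 1 of 5 tested markers of spinal cord glia fell (29.4 to 42.7 and 24.5 to 44.8 CPM). With injury under saline, 6 of 7 injured neuron markers rose (to 183 to 205 CPM), as did 2 of 7 macrophage markers, 1 of 10 sensory neuron markers and 1 of 6 satellite glia markers. In SNI-DMI versus SNI-Saline, 1 of 7 neutrophil markers and 2 of 5 markers of spinal cord glia fell and 1 of 6 satellite glia markers rose. All 7 neutrophil markers had a log2FC below 0 there, 5 of them at a nominal p under 0.05 by edgeR, with a median of -1.43. No marker of Schwann cells, endothelium, red cells or skeletal muscle was called in these comparisons. In that order, their median log2FC were 0.07, -0.25, -0.81 and -1.72 in Sham-DMI versus Sham-Saline. With injury under saline they were 0.26, -0.03, -0.19 and 0.56. In SNI-DMI versus SNI-Saline they were -0.17, -0.008, -0.57 and 1.30. Skeletal muscle markers had a median of 4.02 in SNI-DMI versus Sham-DMI, also without a call. The part of these cell markers in the mitoribosomal differences was not tested.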

How the data were processed

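RNA-seq libraries (Stranded mRNA Prep, paired reads of 50 bases) were made from the L3-6 DRGs of 16 mice. Per the labels and the study's methods, the authors aligned reads to mm10 with HISAT2 and deposited raw HTSeq read counts per Ensembl gene, 52636 genes in each file, with 5 closing lines of unassigned reads that were kept out of library sizes. Versions and the strand setting of the counting are not given in the sources used here. Whether the counts came from separate litters or cages is not stated.

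Counts were tested in edgeR 4.0.16 (R 4.3.3; TMM scaling, filterByExpr, quasi-likelihood fit of the 4 groups over all 16 libraries, Benjamini-Hochberg over the 21371 genes kept), and a gene was called at an adjusted p under 0.1. SE is that of the log2 fold change. The study's own test, DESeq2 (1.42.0 here), its cut-offs, other scalings and filters, the replicate block, removal of GC and length trends, and leaving out each library were alternatives. CPM are per TMM-scaled library; CPM per kilobase divides by merged exon length in GENCODE M21, in which 52403 of the 52636 IDs were found. Scripts were tested on simulated counts. Precision is set by 4 mice per group and by the depth, 41194238 to 73920332 counts on genes.

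The members, gene lists and marker lists were chosen with earlier results of these data known. Named members were the 5 highest and 3 lowest by level, the 5 with the smallest p among those called in each comparison and direction (3 by nominal p where fewer than 3 were called), the 3 with the largest and the 3 with the smallest spread within groups, those failing the filter, and 11 fixed for role or structure; of other lists, up to 3 with the smallest p among those called.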

Additional observations from a re-analysis of the deposited data

Results flagged for a closer look

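Of 128 groups of 4 mice checked (the named genes and the summed level, in each group), 9 held a mouse whose gap to the next, as a share of the range of the group, was over Dixon's critical value, and chance flags about 1 in 20 such groups. In Sham-Saline these were Mrpl41 (46.5 CPM in mouse 3, against 52.2 to 53.2 in the others), Mrpl47 (17.7 CPM in mouse 3, against 20.6 to 21.2), Mrps18a (52.7 CPM in mouse 1, against 45.6 to 46.5) and Mrpl19 (32.1 CPM in mouse 1, against 30.1 to 30.3). Sham-Saline 3 also had the lowest summed level of all libraries. In SNI-Saline, Mrpl42 was at 54.4 CPM in mouse 4, against 55.9 to 56.2 in the others. In Sham-DMI, Mrps18b was at 11.8 CPM in mouse 1, against 13.8 to 13.95, although that library had the highest summed level.

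Mrps23, which was not tested, stood apart in 3 groups. It was at 2.30 CPM in SNI-Saline 2, against 0 to 0.0725 CPM in the other SNI-Saline mice. The other flags were zeros, 0 CPM in Sham-Saline 2 (against 0.0302 to 0.0348) and 0 CPM in Sham-DMI 3 (against 0.0946 to 0.102), which at this depth are differences of a few counts.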

How the results depend on the processing

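Calls in the comparisons with a saline baseline were upward in all alternatives, except in SNI-DMI versus SNI-Saline for Mrpl3, lower in the fit of 8 libraries, in DESeq2 and without Sham-DMI 1, and for Mrps23, lower in the unfiltered fit. Of SNI-Saline versus Sham-Saline, 23 calls (12% of all genes) became 35 with DESeq2 (8.87%) and 37 in a fit of the 8 libraries of the contrast (16.7%). They became 11 with GC and length trends removed (6.08%) and 9 with these and the replicate block (4.53%). With the share of reads outside genes as a covariate they became 0 (1.02%). Of SNI-DMI versus SNI-Saline, 7 calls (2.93% of all genes) became 17 with DESeq2 (4.86%), 11 with at least 10 counts in every library (4.69%) and 24 in the fit of 8 libraries (8.86%). They became 1 with the trends removed (0.342%) and 0 with these and the block (0.00468%). Of Sham-DMI versus Sham-Saline, 61 calls (23.4% of all genes) became 15 with that covariate (4.96%). The median fell from 0.25 to 0.16, with Mrps30 reversed at -0.025. The other alternatives left that comparison at 50 to 66 calls. Shares of all genes are over the genes kept in each fit. DESeq2 took all genes with any count, low counts included, so its shares cannot be set directly against those of the filtered edgeR fits. Leaving out 1 library gave 4 to 42, 0 to 18, 51 to 65, 0 to 1 and 0 to 0 calls in the 5 comparisons in the order of the report. In the first 3, the calls over all genes ranged from 3.15 to 15.1%, 0 to 8.48% and 15.2 to 28.1%. The median log2FC then ranged from 0.231 to 0.326 in Sham-DMI versus Sham-Saline and from -0.0122 to 0.0412 in SNI-DMI versus Sham-DMI. The cause was not tested. The covariate was added after the values were seen; it also differs between the groups, so that it takes up part of the group differences by construction.

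Replicate numbers were not taken to pair the mice, since no source ties them to a shared litter or day and 5 of 24 correlations of same-numbered libraries (-0.0905 to 0.194) passed 0.1; 7 of 16 libraries correlated best with their own number. The replicate block took SNI-DMI versus SNI-Saline from 7 calls to 3 (all genes, 2.93% to 0.805%). It took SNI-Saline versus Sham-Saline from 23 to 21 (12% to 9.85%) and Sham-DMI versus Sham-Saline from 61 to 59 (23.4% to 22.2%). Every tested gene of the set had at least 12664 counts in all, whereas Mrps23 and Mrpl53 were too shallow to compare.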
